A study of Mus musculus with 13 samples.

Results

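The genes described here encode 40 proteins of the extracellular matrix other than collagens: glycoproteins, elastic fibre proteins, basement membrane proteins, proteoglycans and lysyl oxidases, the enzymes that crosslink collagen and elastin. They were given as a list of symbols, and each matched 1 Ensembl gene of the 43629 in the count files. Of the 40, 10 were grouped as glycoproteins, 12 as elastic fibre proteins, 9 as basement membrane proteins, 5 as proteoglycans and 4 as lysyl oxidases. Across these groups, 8 large glycoproteins (fibronectin, the tenascins, thrombospondins and fibrillins), 6 laminin chains, 4 small proteoglycans (biglycan, decorin, fibromodulin and lumican) and the 4 lysyl oxidases were also compared with each other.

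Fibroblasts secrete these proteins and assemble them outside the cell. Fibronectin is laid down first as fibrils that bind integrins, and collagens, tenascins and thrombospondins join it. Fibrillins form microfibrils onto which elastin is deposited with the help of fibulins, and lysyl oxidases then link the chains covalently. Laminins, nidogens and perlecan build the basement membrane. Small leucine-rich proteoglycans such as decorin bind collagen fibrils and growth factors, while versican binds hyaluronan and swells the matrix.

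The study measured RNA in mouse embryonic fibroblasts (MEFs) labelled E12.5, primary connective tissue cells grown in culture, to compare the RNA partners of IMP1 (gene Igf2bp1) and IMP2 (gene Igf2bp2), RNA-binding proteins of 1 family that act on the stability, localisation and translation of mRNA. In RNA immunoprecipitation (IP), RNA is recovered along with a protein caught by its antibody: 3 libraries came from IMP1 antibody, 3 from IMP2 antibody and 3 from control immunoglobulin (IgG), which measures unspecific pull-down. Total RNA came as 4 single libraries: a wild type (WT) and a knockout (KO) for IMP1, and a WT and a KO for IMP2. The genotype of the cells used for IP is not in the labels, nor how the genes were deleted, nor whether replicate libraries were grown as separate cultures, so the p-values measure the spread between these libraries, which may be technical.

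Gene counts came to between 11430002 and 21756430 a library, and within an IP group the log2 CPM of any pair of libraries had a Pearson's r over genes between 0.9942 and 0.9961. Reads outside annotated genes made up 29.2% to 30.4% of the records in IgG IP that were not aligned to several places, 9.67% to 9.74% in IMP1 IP, 6.54% to 7.2% in IMP2 IP and 7.49% to 8.28% of those in total RNA. IgG IP thus stood apart from both antibody pull-downs, and the part of this difference in the comparisons with IgG was not tested. All 11 fibroblast markers (Col1a1, Pdgfra, Vim and others) were above 1 CPM in total RNA, where they summed to 26926 to 43015 CPM. Single markers differed between genotypes. Of the 10 with at least 10 CPM, 2 were at least 2-fold higher and 2 lower in IMP1 KO than in its wild type. In IMP2 KO, 1 was higher (Pdgfra) and 3 were lower (Thy1, S100a4 and Prrx1). Over all genes the shares were 5.52% and 7.23% in IMP1 KO and 7.51% and 7.83% in IMP2 KO. Values in CPM depend on transcript length, so levels were compared between libraries and never between genes.

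In the IP libraries, 36 of the 40 genes passed the filter on low counts and were tested among 14076 genes. Elastin (Eln) had no count in any of the 9, lumican (Lum) had 0 to 2 counts, and the microfibril-associated proteins Mfap4 and Mfap5 had 0 to 4 each. In RefSeq's gene table, 14 of the 40 spans overlap another gene on either strand. Of these, 2 overlap a protein-coding gene, 8 a long non-coding RNA (Tnc, Postn, Thbs3, Fbn2, Eln, Lama2, Lama5 and Vcan) and 4 only genes of other types (Tnxb, Ecm1, Lamc1 and Hspg2). Since the strand used in counting is not given, reads of such pairs cannot be told apart. The test was edgeR's quasi-likelihood test with Benjamini-Hochberg adjustment over all 14076 genes and a threshold of adjusted p under 0.05.

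Most of the tested matrix mRNAs of this list were higher in the IMP1 pull-down than in IgG. Of the 36, 30 were higher and 1, biglycan (Bgn), was lower, against 31.7% of all tested genes higher and 31.9% lower. The median log2 fold change was 0.51 over the 36 and -0.032 over all genes. Periostin (Postn), fibulin-2 (Fbln2) and fibrillin-1 (Fbn1) had the highest values, and the 30 covered all 10 glycoproteins, 9 of 9 basement membrane genes, 4 of 4 lysyl oxidases, 5 of 9 tested elastic fibre genes and 2 of 4 tested proteoglycans. The changes were small: 14 of the 30 reached 1.5-fold, as 7.59% of all tested genes did in this direction, and Postn, the highest, reached 1.76-fold.

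In the IMP2 pull-down the same 36 genes were divided. Of them, 14 were higher than in IgG and 18 lower, against 40.3% and 37.3% of all tested genes, with a median of -0.068 over the 36 and 0.036 over all genes. The count of 14 is close to the background share of higher genes. Decorin (Dcn), fibulin-5 (Fbln5) and fibulin-4 (Efemp2) were the highest, and versican (Vcan), laminin alpha 2 (Lama2) and fibrillin-2 (Fbn2) the lowest. The IgG libraries served both comparisons, so the values against IgG are not independent of each other.

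**Figure D1:**
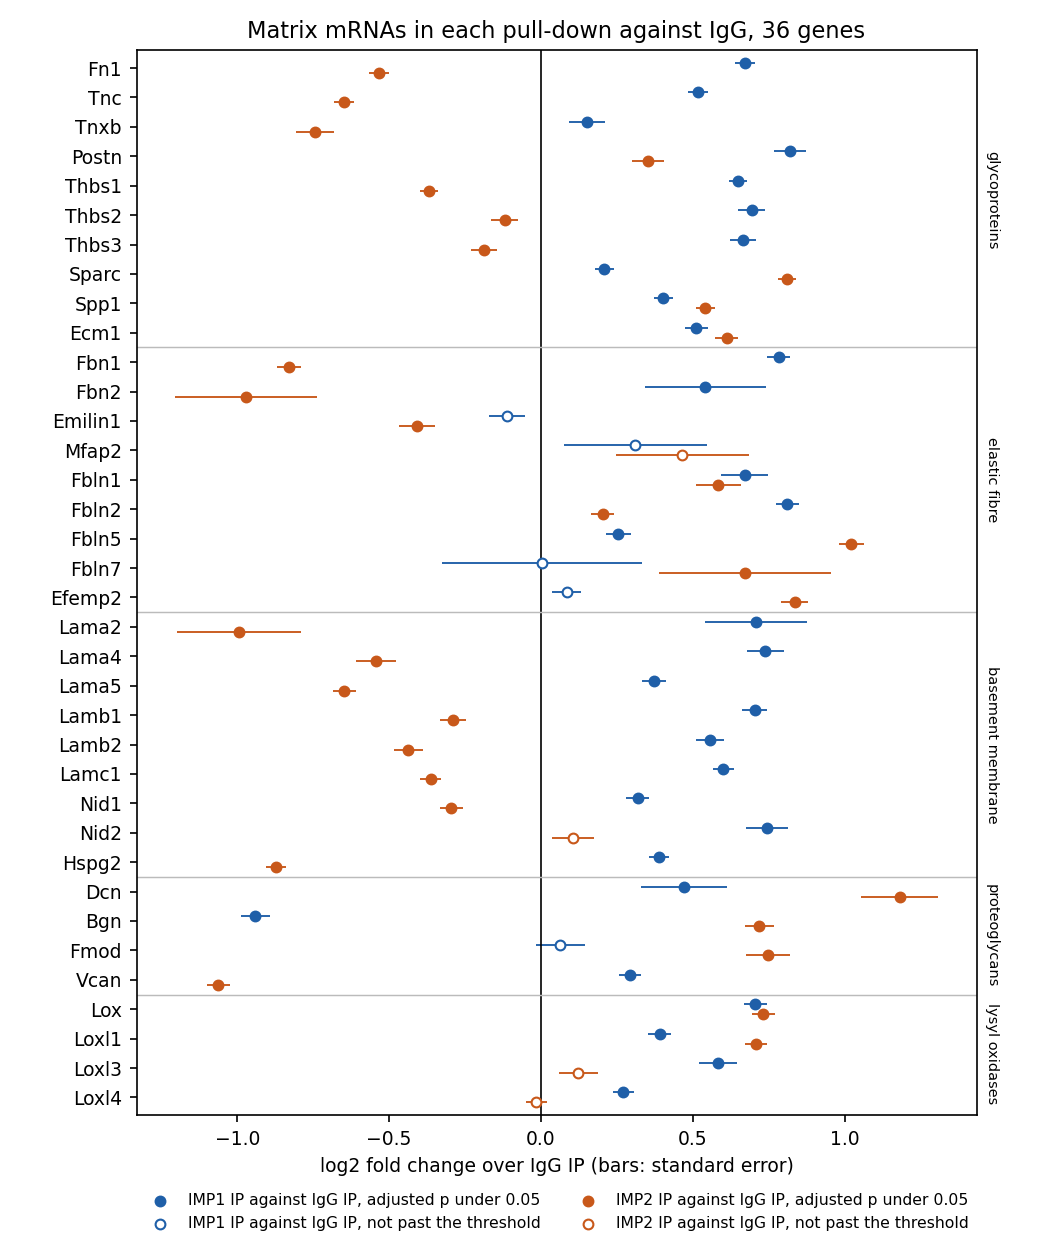
Log2 fold changes of the 36 tested matrix genes in IMP1 IP (blue) and IMP2 IP (orange) against the same 3 IgG IP libraries, with standard errors, filled where adjusted p was under 0.05. The 8 filled IMP2 points of the basement membrane genes lie below 0, while all 9 IMP1 points lie above it, and Bgn is the only gene with a filled IMP1 point below 0.

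The direct comparison of both pull-downs does not take IgG as its reference. In it the large glycoproteins and laminins differed in direction from the small proteoglycans, while the lysyl oxidases were mixed. The members were chosen with earlier results of these data known. Of the 36, 23 were higher in IMP1 IP and 10 higher in IMP2 IP, against 34.1% and 37.3% of all genes, and the median log2 fold change was 0.61 against -0.012. All 8 large glycoproteins and all 6 laminins were higher in IMP1 IP, with medians of 1.09 and 1.01. The 3 small proteoglycans that could be tested were all lower in IMP1 IP, with a median of -0.71. Of the 4 lysyl oxidases, 2 were higher, 1 was lower and Lox did not pass the threshold. The directions of the large glycoproteins, laminins and small proteoglycans in this comparison were the same under upper quartile and total count scaling, while Loxl4 went to -0.042 under total count scaling.

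**Figure D2:**
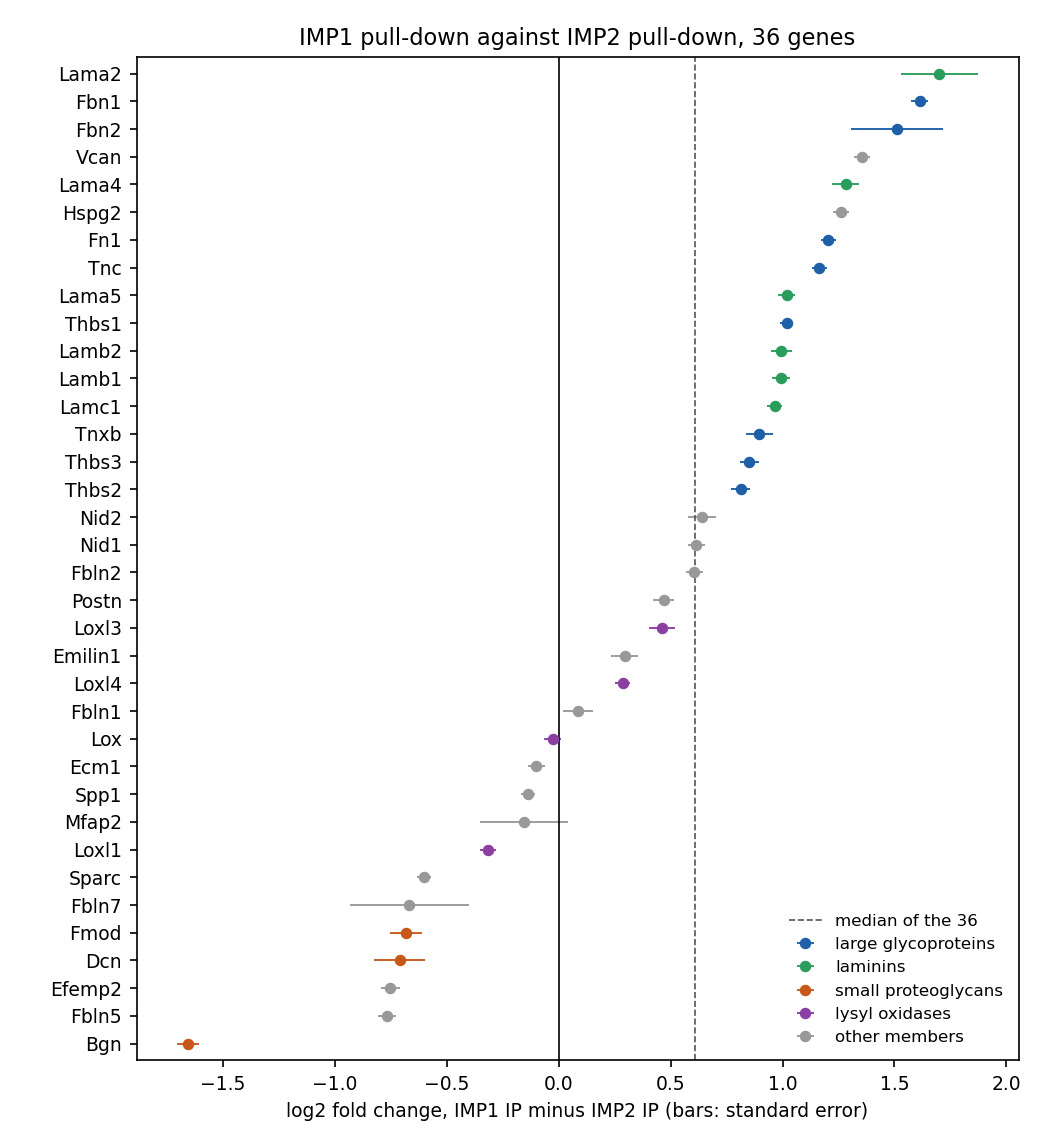
Log2 fold change of IMP1 IP over IMP2 IP for the 36 tested genes in order of value, with standard errors, coloured by class, and with the median of the 36 (0.61) as a dashed line. All large glycoproteins and laminins lie between 0.81 and 1.70, and the 3 small proteoglycans between -1.66 and -0.68.

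How the counts are scaled moved these balances. Relative to TMM, the scaling used here, total count scaling moved the median of all genes to -0.19 in IMP1 IP against IgG, 0.21 in IMP2 IP against IgG and -0.34 in IMP1 IP against IMP2 IP. The share of all called genes that were higher went from 49.8%, 51.9% and 47.8% with TMM to 33.3%, 62.2% and 27.8%, and upper quartile scaling gave 31.6%, 39.9% and 48.3%. The matrix genes higher and lower under total count scaling were 26 and 2, 18 and 16, and 21 and 13. Under upper quartile scaling they were 25 and 2, 12 and 19, and 23 and 10.

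Positions in the genome are given for the genes with the widest differences, as spans in RefSeq's GRCm38.p6. Fibronectin (Fn1), encoded at chr1:71585473-71653280 (ENSMUSG00000026193), is the central adhesive glycoprotein of the fibroblast matrix and had the most reads of its group in the 13 libraries. Its level was 13213, 13281 and 13080 CPM in IgG IP, 20412, 21137 and 21535 CPM in IMP1 IP and 8749, 9091 and 9527 CPM in IMP2 IP. The groups did not overlap, with IMP1 IP on top and IMP2 IP at the bottom. The log2 fold change was 0.67 ± 0.033 (SE, adjusted p = 9.61e-14) in IMP1 IP over IgG, -0.53 ± 0.033 (SE, adjusted p = 2.59e-12) in IMP2 IP over IgG, and 1.21 ± 0.033 (SE, adjusted p = 1.09e-18) between the pull-downs, or 2.31-fold.

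The other large glycoproteins were also higher in IMP1 IP than in IMP2 IP. Tenascin-C (Tnc), which modulates adhesion to fibronectin, was 2.24-fold higher in IMP1 IP than in IMP2 IP, and the thrombospondins Thbs1, Thbs2 and Thbs3, which bind matrix and cell surface receptors, were 2.03-fold, 1.76-fold and 1.81-fold higher. Tenascin-X (Tnxb), which organises collagen, stood at 33.5, 33.8 and 36 CPM in IgG IP, 39.7, 38.3 and 36.8 CPM in IMP1 IP and 20.4, 20.9 and 20.4 CPM in IMP2 IP. It was well below IgG in all 3 IMP2 libraries (-0.74 ± 0.062 SE, adjusted p = 4.31e-10) and just above it in the IMP1 libraries (0.15 ± 0.06 SE, adjusted p = 0.0318). The IMP1 value of Tnxb was the lowest of the 30 that rose. Its call was lost without IgG IP replicate 1, at 0.13, replicate 2, at 0.14, or IMP1 IP replicate 1, at 0.13, or 2, at 0.16, and the value turned to -0.019 and -0.002 under upper quartile and total count scaling. Thbs2 and Thbs3 were only slightly below IgG in IMP2 IP, at -0.12 and -0.19. The call of Thbs2 was lost without IgG IP replicate 1 (adjusted p = 0.0519), IgG IP replicate 3 (adjusted p = 0.125) or IMP2 IP replicate 2 (adjusted p = 0.161), and its sign turned under total count scaling, at 0.054. The call of Thbs3 was lost under total count scaling (-0.014, adjusted p = 0.779) and without a count filter (-0.096, adjusted p = 0.132).

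The smaller glycoproteins differed in direction. Postn, a matricellular protein that binds collagen and integrins, stood at 38.5, 40.6 and 43.5 CPM in IgG IP, 73.2, 72.3 and 71.1 CPM in IMP1 IP and 51.6, 53.1 and 51.8 CPM in IMP2 IP. It was above IgG in both pull-downs and higher in IMP1 IP than in IMP2 IP, by 0.47 ± 0.048 (SE, adjusted p = 1.01e-08). Sparc, a collagen-binding matricellular protein, stood at 680.1, 681 and 683 CPM in IgG IP, 789.5, 798 and 775 CPM in IMP1 IP and 1227, 1186 and 1172 CPM in IMP2 IP. All 3 IMP2 libraries lay above all the others, with 0.81 ± 0.03 (SE, adjusted p = 6.22e-16) over IgG, and IMP1 IP exceeded IgG by 0.21 ± 0.03 (SE, adjusted p = 3.33e-06). The IMP1 call of Sparc was lost under upper quartile scaling (0.039, adjusted p = 0.278) and total count scaling (0.056, adjusted p = 0.108). Osteopontin (Spp1), a secreted integrin ligand, and Ecm1 were above IgG in both pull-downs, and between them differed by -0.14 and -0.10. The difference of Ecm1 did not pass the threshold without IMP1 IP replicate 1 (-0.091, adjusted p = 0.0662) or 3 (-0.093, adjusted p = 0.0711).

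Among the elastic fibre genes, the fibrillins, the large rods of the microfibril, were higher in IMP1 IP than in IMP2 IP. Fbn1 (ENSMUSG00000027204, chr2:125300594-125506485) stood at 192, 200.1 and 200.2 CPM in IgG IP, 344, 344 and 331 CPM in IMP1 IP and 112, 105 and 116 CPM in IMP2 IP. It was 1.72-fold above IgG in IMP1 IP and 1.78-fold below it in IMP2 IP, and the pull-downs differed by 1.61 ± 0.039 (SE, adjusted p = 1.26e-19), or 3.06-fold. Fbn2, the fibrillin of early development, was scarce, with 23 to 75 counts a library. It stood at 1.94, 4.26 and 2.98 CPM in IgG IP, 4.43, 4.42 and 4.27 CPM in IMP1 IP and 1.31, 1.32 and 1.89 CPM in IMP2 IP. The IgG libraries spread widely, and 1 of them came close to the IMP1 libraries. Its log2 difference between the pull-downs was 1.51 ± 0.20 (SE, adjusted p = 7.91e-07). Its excess over IgG in IMP1 IP (0.54 ± 0.20 SE, adjusted p = 0.0221) was lost without IgG IP replicate 1, at 0.30, or replicate 3, at 0.54. It was also lost with DESeq2 (adjusted p = 0.0713), upper quartile scaling (0.37, adjusted p = 0.106) and total count scaling (0.39, adjusted p = 0.0925). The deficit of Fbn2 in IMP2 IP was -0.97 ± 0.23 (SE, adjusted p = 0.000722).

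The fibulins, proteins that bridge elastin, fibrillin and lysyl oxidases, were divided. Fbln2 had the most reads of the elastic fibre group and stood at 1088, 1120 and 1111 CPM in IgG IP, 1971, 1922 and 1924 CPM in IMP1 IP and 1369, 1205 and 1248 CPM in IMP2 IP. It was highest in IMP1 IP, at 0.81 ± 0.038 (SE, adjusted p = 4.68e-14) over IgG and 0.61 ± 0.037 (SE, adjusted p = 1.74e-12) over IMP2 IP, and its smaller excess in IMP2 IP (0.20 ± 0.038 SE, adjusted p = 4.35e-05) was lost under upper quartile scaling (0.025, adjusted p = 0.56). Fbln5, which tethers elastin to cells, stood at 78.1, 79.5 and 75.7 CPM in IgG IP, 95.2, 90.4 and 92.4 CPM in IMP1 IP and 154, 159.8 and 159 CPM in IMP2 IP. Here all 3 IMP2 libraries were on top, at 1.02 ± 0.04 (SE, adjusted p = 1.35e-15) over IgG, while IMP1 IP exceeded IgG by 0.26 ± 0.042 (SE, adjusted p = 1.78e-05), a call lost under upper quartile scaling (0.084, adjusted p = 0.0872). Efemp2, needed to bring lysyl oxidase to elastin, stood at 72.1, 79 and 72.4 CPM in IgG IP, 77.5, 80.2 and 78.7 CPM in IMP1 IP and 139, 131 and 129 CPM in IMP2 IP. It rose 1.78-fold over IgG in IMP2 IP and was not past the threshold in IMP1 IP (0.084, adjusted p = 0.129), where the libraries overlapped those of IgG and the threshold was passed without IgG IP replicate 2 (0.13, adjusted p = 0.0341). The pull-downs differed by -0.77 ± 0.039 (SE, adjusted p = 4.46e-14) for Fbln5 and -0.75 ± 0.044 (SE, adjusted p = 5.76e-13) for Efemp2.

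Fbln1 was above IgG in both pull-downs, at 0.67 and 0.58, and did not pass the threshold between them (0.086, adjusted p = 0.253). Under total count scaling Fbln1 passed it with the sign turned (-0.24, adjusted p = 0.0027). Fbln7 had 9 to 31 counts a library, and its call in IMP2 IP (0.67 ± 0.28 SE, adjusted p = 0.0355) came with libraries that overlapped those of IgG. That call was lost without IgG IP replicate 1 or 3 and without IMP2 IP replicate 1 or 3, with adjusted p of 0.0983, 0.142, 0.108 and 0.0683. Its difference between the pull-downs (-0.67, adjusted p = 0.0295) was lost without any 1 IMP1 library and without IMP2 IP replicate 1 or 3. Emilin1, an elastic fibre glycoprotein, was lower in IMP2 IP than in IgG, at -0.41, and turned from 0.29 to -0.032 between the pull-downs under total count scaling. The microfibril protein Mfap2, with 14 to 60 counts a library, passed the threshold in none of the 3 comparisons, although it did so in IMP2 IP against IgG without IgG IP replicate 3 (0.64, adjusted p = 0.0343).

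The 9 basement membrane genes shared a direction. All 9 were higher in IMP1 IP than in IMP2 IP, against 34.1% of all tested genes. Their median log2 fold change was 0.99, with a range of 0.61 to 1.70. In IMP2 IP, 8 of the 9 were below IgG, against 37.3% of all tested genes. Perlecan (Hspg2), the large heparan sulphate proteoglycan of the basement membrane, had the most reads of the group, at 4944, 5152 and 5034 CPM in IgG IP, 6608, 6633 and 6570 CPM in IMP1 IP and 2849, 2599 and 2819 CPM in IMP2 IP. The libraries fell into 3 separate levels, with 0.39 ± 0.034 (SE, adjusted p = 1.19e-09) in IMP1 IP and -0.87 ± 0.034 (SE, adjusted p = 1.13e-15) in IMP2 IP over IgG. The laminin chains Lama5, Lamb1, Lamb2 and Lamc1 differed between the pull-downs by a narrow 0.96 to 1.02. Lama4, a chain of vessel and mesenchymal laminins, differed by 1.28 ± 0.06 (SE, adjusted p = 1.12e-14).

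Lama2 (ENSMUSG00000019899, chr10:26981285-27617191), the alpha chain of muscle laminin, showed the highest log2 fold change of the 36 between the pull-downs, at 1.70 ± 0.17 (SE, adjusted p = 1e-08), on 24 to 76 counts a library. Its level was 2.66, 2.98 and 2.29 CPM in IgG IP, 4.49, 4.11 and 4.27 CPM in IMP1 IP and 1.36, 1.58 and 1.03 CPM in IMP2 IP. No IMP1 library overlapped an IgG or IMP2 library, and IMP2 IP lay below IgG, at -0.99 ± 0.20 (SE, adjusted p = 0.000142). The nidogens, which link laminin to collagen IV, differed less, with 0.61 for Nid1 and 0.64 for Nid2. Nid2 was not past the threshold against IgG in IMP2 IP (0.10, adjusted p = 0.169), and passed it without IgG IP replicate 3 (0.18, adjusted p = 0.0405) or IMP2 IP replicate 2 (0.19, adjusted p = 0.0183). The span of Nid2 overlaps the protein-coding gene Rtraf.

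Of the tested proteoglycans, 3 small ones were lower in IMP1 IP than in IMP2 IP, and Vcan, the only large one in this group, was higher. A part of size in this was not tested. Bgn (ENSMUSG00000031375, chrX:73483601-73495936), a small leucine-rich proteoglycan that binds collagen, stood at 1188, 1197 and 1187 CPM in IgG IP, 608, 619.9 and 634 CPM in IMP1 IP and 1728, 2064 and 2086 CPM in IMP2 IP. The 3 IMP1 libraries were on average 1.92-fold below IgG and the 3 IMP2 libraries above it, with -0.94 ± 0.049 (SE, adjusted p = 2.59e-13) and 0.72 ± 0.048 (SE, adjusted p = 9.98e-12). Between the pull-downs Bgn differed by -1.66 ± 0.049 (SE, adjusted p = 3.86e-18), or 3.16-fold, the lowest value of the 36. Dcn (ENSMUSG00000019929, chr10:97479500-97518163), which coats collagen fibrils, stood at 5.68, 4.86 and 5.82 CPM in IgG IP, 7.68, 8.53 and 6.62 CPM in IMP1 IP and 10.4, 13.5 and 13.2 CPM in IMP2 IP. It was above IgG in both pull-downs, by 0.47 ± 0.14 (SE, adjusted p = 0.00652) in IMP1 IP and 1.18 ± 0.13 (SE, adjusted p = 2.45e-08) in IMP2 IP, on 57 to 321 counts. The IMP1 call of Dcn was lost under upper quartile scaling (0.30, adjusted p = 0.071) and total count scaling (0.32, adjusted p = 0.0578).

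Fibromodulin (Fmod), another small collagen-binding proteoglycan, rose 1.68-fold over IgG in IMP2 IP and was not past the threshold in IMP1 IP (adjusted p = 0.506). Vcan (ENSMUSG00000021614, chr13:89655309-89743027), the large proteoglycan of this group, went the other way. It stood at 473, 465 and 476 CPM in IgG IP, 570.5, 589 and 572 CPM in IMP1 IP and 210.3, 233 and 234 CPM in IMP2 IP. Its IMP2 libraries were on average 2.09-fold below IgG, at -1.06 ± 0.038 (SE, adjusted p = 2.66e-16), the lowest value of the 36 in that comparison, while IMP1 IP was above IgG by 0.29 ± 0.037 (SE, adjusted p = 4.32e-07).

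The lysyl oxidases were all above IgG in IMP1 IP. Lox, the founding enzyme, had the most reads of the 4, at 539, 516 and 532 CPM in IgG IP, 851, 867 and 869 CPM in IMP1 IP and 817, 918 and 899 CPM in IMP2 IP. Both pull-downs stood above IgG, by 0.70 ± 0.038 (SE, adjusted p = 4.44e-13) and 0.73 ± 0.038 (SE, adjusted p = 1.25e-13), and their libraries overlapped each other (-0.027 ± 0.037 SE, adjusted p = 0.528). That last difference passed the threshold without IMP2 IP replicate 1 (-0.088, adjusted p = 0.00199) and under total count scaling (-0.35, adjusted p = 2.17e-08). Loxl1, which acts on elastin, was lower in IMP1 IP than in IMP2 IP, at -0.32. Loxl3 and Loxl4 were higher in IMP1 IP, by 0.46 and 0.28, and neither passed the threshold in IMP2 IP against IgG. There Loxl3 passed it without IMP2 IP replicate 2 (0.17, adjusted p = 0.0237). Loxl4 was called higher under total count scaling (0.16, adjusted p = 0.000238) and lower under upper quartile scaling (-0.194, adjusted p = 3.02e-05). The span of Loxl3 overlaps the protein-coding gene Htra2.

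**Figure D3:**
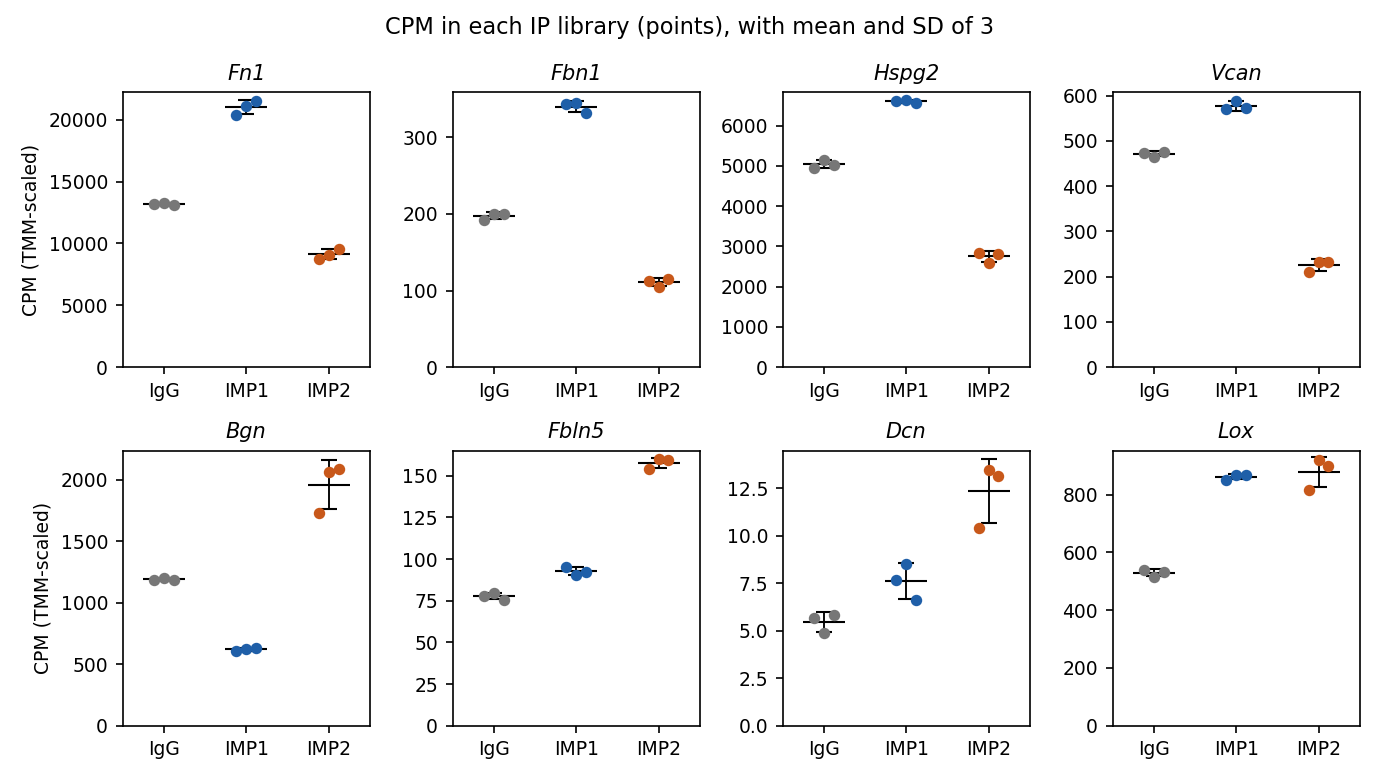
TMM-scaled CPM in each of the 9 IP libraries for 8 matrix genes, with points for libraries and black marks for the mean and SD of 3. Fn1, Fbn1, Hspg2 and Vcan run from IMP1 down through IgG to IMP2, Bgn runs from IMP2 down through IgG to IMP1, Fbln5 and Dcn are highest in IMP2, and Lox is above IgG in both.

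Gene span in the genome, the only length at hand, ran along with these values. Over the 36 genes, Spearman's rho between span and log2 fold change was 0.38 in IMP1 IP over IgG, -0.56 in IMP2 IP over IgG and 0.64 between the pull-downs. Over 13012 tested genes with a span it was 0.29, -0.19 and 0.31. These are descriptions across genes, the comparisons share libraries, and span includes introns, so that transcript length itself was not analysed here.

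Other matrix gene lists, written from general knowledge but with earlier results of these data known, showed other balances in the direct comparison. Of 40 tested other matrix glycoproteins, 20 were higher in IMP1 IP and 9 in IMP2 IP, with Spon2 at -0.70, Lama3 at 1.31 and Mmrn2 at 1.53. Of 18 other proteoglycans, 2 were higher in IMP1 IP and 12 in IMP2 IP, with the syndecans Sdc4 (-1.34) and Sdc1 (-0.80), which sit in the cell membrane, lowest, and Cspg4 (0.98) and Prg4 (1.49) highest. Of 38 enzymes that build glycosaminoglycan chains, 13 were higher and 16 lower, and of 19 integrins and other matrix receptors 11 were higher and 3 lower. Over all genes the shares in this comparison were 34.1% higher and 37.3% lower, and the counts of the enzymes were close to them. The medians were 0.33, -0.37, -0.036 and 0.39, beside 0.61 for the 36 genes and -0.012 for all genes. In IMP1 IP against IgG, 25 of the 40 other matrix glycoproteins were higher and 4 lower. For the 18 other proteoglycans these counts were 2 and 9, for the 38 enzymes 20 and 5, and for the 19 receptors 12 and 4. Over all genes the shares were 31.7% and 31.9%.

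Set against total RNA, most of these mRNAs were lower in every pull-down, IgG included. In CPM over total gene counts, all 9 IP libraries lay below both wild-type libraries for 30 of the 39 genes with at least 10 CPM in a total RNA library, against 43.8% of 10324 such genes, and at least 10-fold below for 9 of the 39, against 6.43%. These were Eln, Fbn2, Loxl3, Lum, Mfap2, Mfap4, Mfap5, Postn and Spp1. This comparison was added after the values were seen, and it involves 2 kinds of library of different preparation.

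Elastin was at 136 and 77.2 CPM in the IMP1 and IMP2 wild types and had 0 counts in all 9 IP libraries, which makes it at least 305-fold lower there, taking 3 counts as the floor of each library. Lum (42.4 and 79.6 CPM), Mfap4 (30.4 and 48.2 CPM) and Mfap5 (45.6 and 44.6 CPM) had at most 4 counts in an IP library. Spp1 was at 11559 and 16007 CPM in the wild types and at 498 to 846 CPM in the IP libraries, and Fbn2 at 129 and 208 CPM and 1.46 to 4.22 CPM. These 6 mRNAs were thus well measured in wild-type total RNA and at least 10-fold lower in all 9 IP libraries. Spp1 was still well measured there, with 5972 to 17490 counts a library.

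All 9 IP libraries lay above both wild types for 8 genes, against 29.7% of all genes: Hspg2, Lama5, Lamb1, Lamb2, Lamc1, Loxl4, Thbs3 and Vcan. Loxl4 was at 547 to 637 CPM in the IP libraries and 99.3 and 73.8 CPM in the wild types. Lamc1 was at 503 to 823 CPM against 218 and 249 CPM. Tnxb, outside the 39, was at 22.8 to 35.7 CPM against 1.63 and 1.51 CPM. When both wild types replaced IgG as the background in the edgeR test, 10 genes were higher and 29 lower in IMP1 IP, and 9 and 31 in IMP2 IP, of all 40. Of 16157 genes tested this way, 41.4% were higher and 44.7% lower in IMP1 IP, and 39.5% and 41.6% in IMP2 IP. The direction against background depended on which background was taken.

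**Figure D4:**
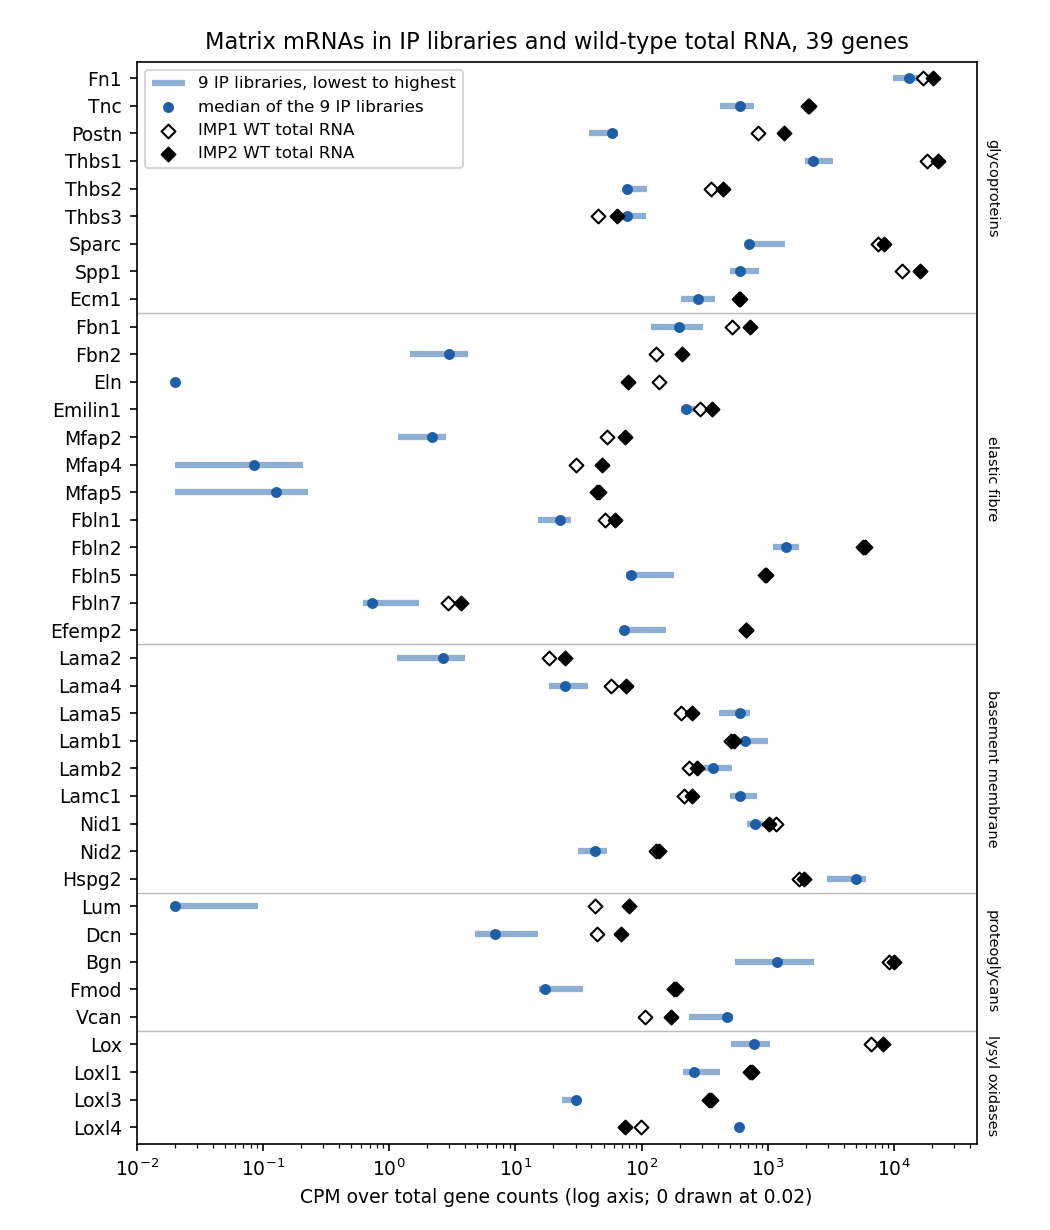
CPM over total gene counts on a log axis for 39 genes, with a bar from the lowest to the highest of the 9 IP libraries, a point at their median, and diamonds for both wild-type total RNA libraries; a value of 0 is drawn at 0.02. The bar lies left of both diamonds for 30 genes, far left for Eln, Lum, Mfap4 and Mfap5, and right of both for 8, with 4 laminin chains, Hspg2 and Vcan among them.

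In total RNA, each knockout was first checked by its own gene. Igf2bp1 was at 3.28 CPM in IMP1 KO against 32.1 CPM in IMP1 WT, 9.78-fold lower (95% counting interval 7.02 to 14), and Igf2bp2 was at 28 CPM in IMP2 KO against 148 CPM in IMP2 WT, 5.27-fold lower (95% counting interval 4.77 to 5.83). With 1 library per genotype no test was possible, intervals cover counting error only, and a difference of at least 2-fold was counted as a change for the 39 genes with at least 10 CPM. The wild types served as the yardstick: none of the 39 differed 2-fold between IMP2 WT and IMP1 WT, where 0.93% of 10320 genes did in either direction, and the log2 ratios ran from -0.79 (Eln) to 0.93 (Lum).

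Both knockouts held matrix mRNAs that were far from their wild type. In IMP1 KO, 7 of the 39 were at least 2-fold higher and 7 lower, against 5.52% and 7.23% of all genes, and in IMP2 KO 6 were higher and 8 lower, against 7.51% and 7.83%. The medians of the 39, 0.065 and 0.026, lay near those of all genes, 0.01 and -0.021. In all, 22 of the 39 differed at least 2-fold in either knockout, against 20.9% of all genes. Fbln7 and Nid2 were higher in both knockouts and Fbln2 and Spp1 lower in both, while Lama4 and Lum went in opposite directions; over all genes these 3 patterns held for 1.97%, 2.66% and 2.56%. The knockouts have separate wild types and share no library.

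Markers of other cell types moved in the same libraries. Chondrocyte markers (9 genes, Col2a1, Acan and Sox9 among them) summed to 15597 CPM in IMP2 KO against 195 CPM in IMP2 WT, with 9 of 9 at least 2-fold higher, and to 189 CPM in IMP1 KO against 387 CPM in IMP1 WT, with 3 higher and 5 lower. Macrophage markers (14 genes) summed to 451 CPM in IMP2 KO against 49.5 CPM, with 11 of 11 measured genes higher, and to 15 CPM in IMP1 KO against 36.3 CPM, with 9 of 11 lower and Ptprc, Adgre1, Tyrobp, C1qb, C1qc, Mrc1 and Aif1 at 0. Smooth muscle markers (8 genes) summed to 1408 CPM in IMP2 KO against 10584 CPM, with 7 of 8 lower, and to 14257 CPM against 14674 CPM in the IMP1 pair, where 1 was higher (Rgs5, 1566 CPM against 33.3 CPM) and 2 lower. The part of these shifts in the matrix differences was not tested, and in bulk RNA fewer cells of a type and less RNA per cell cannot be told apart.

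**Figure D5:**
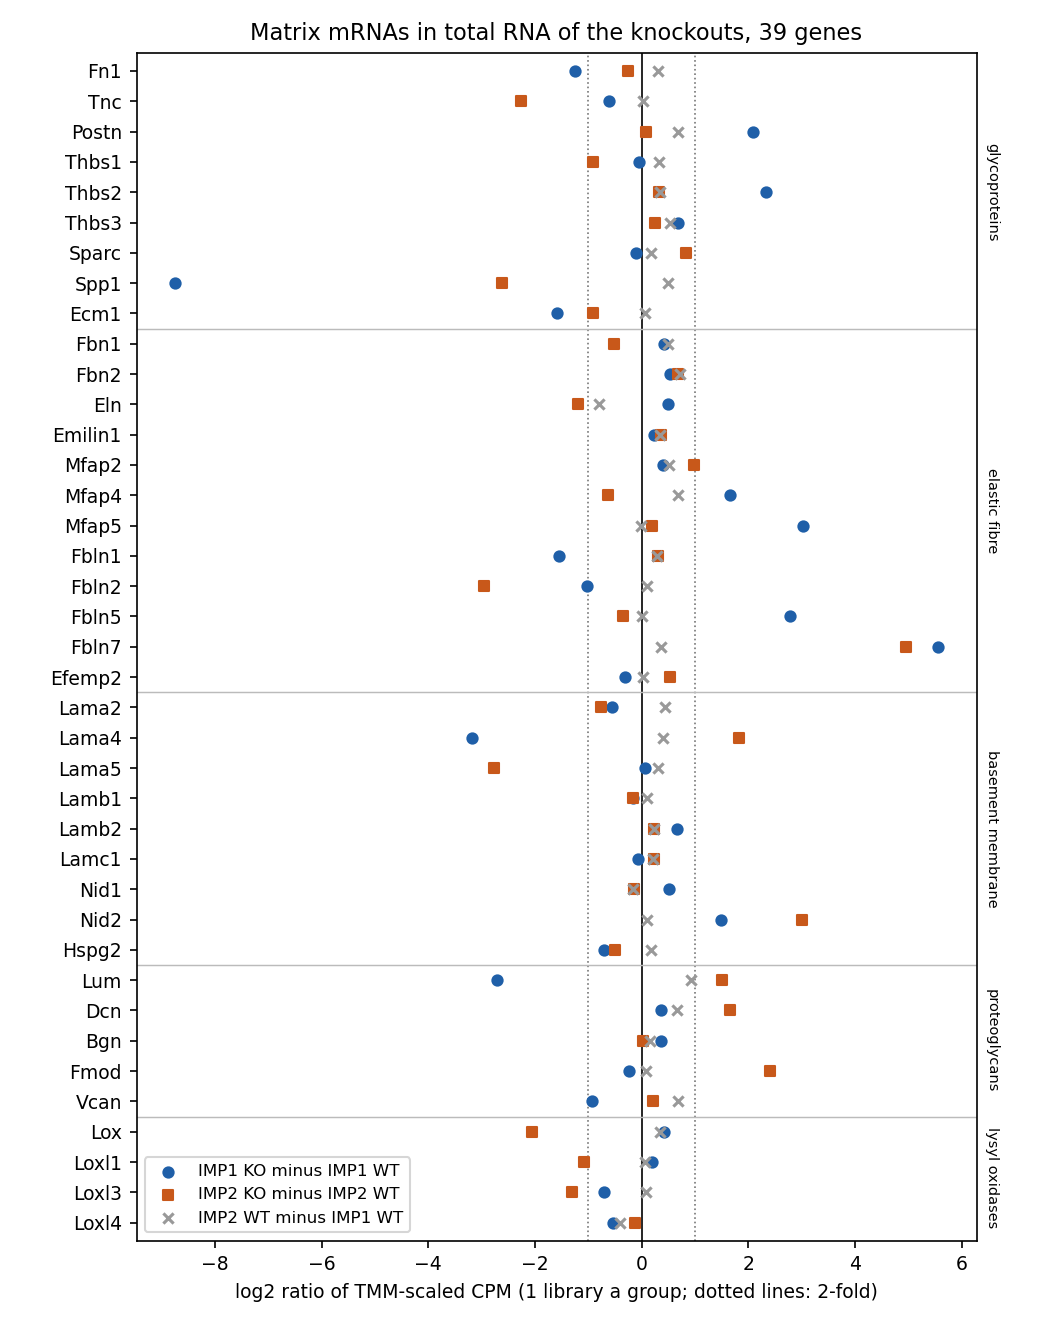
Log2 ratio of TMM-scaled CPM in total RNA for 39 matrix genes: IMP1 KO minus IMP1 WT (blue circles), IMP2 KO minus IMP2 WT (orange squares) and, as a yardstick, IMP2 WT minus IMP1 WT (grey crosses), 1 library each. All grey crosses lie inside the dotted 2-fold lines, while Spp1 reaches -8.75 and Fbln7 5.57 in IMP1 KO.

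Among the glycoproteins, IMP1 KO was higher in Postn and Thbs2 and lower in Fn1, Spp1 and Ecm1 of 9 measured, and IMP2 KO was lower in Tnc and Spp1. Over all genes, 5.52% were higher and 7.23% lower in IMP1 KO, and 7.83% were lower in IMP2 KO. Spp1 was at 26.5 CPM in IMP1 KO against 11487 CPM in IMP1 WT, 434-fold lower (95% counting interval 388 to 487), and at 2659 CPM in IMP2 KO against 16212 CPM in IMP2 WT, 6.1-fold lower (95% counting interval 6.03 to 6.16). Fn1 was at 7045 CPM in IMP1 KO against 16722 CPM in IMP1 WT, 2.37-fold lower (95% counting interval 2.36 to 2.39), but at 17252 CPM in IMP2 KO against 20631 CPM in IMP2 WT. So Fn1 was lower beyond the wild-type yardstick in the IMP1 pair and not in the IMP2 pair. Postn was 4.24-fold higher (95% counting interval 4.16 to 4.33) and Thbs2 5.04-fold higher (95% counting interval 4.89 to 5.2) in IMP1 KO, while Tnc was 4.82-fold lower (95% counting interval 4.7 to 4.94) in IMP2 KO.

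Of the 12 elastic fibre genes, 4 were at least 2-fold higher and 2 lower in IMP1 KO, against 5.52% and 7.23% of all genes. In IMP2 KO, 1 was higher and 2 lower, against 7.51% and 7.83%, and the 1 higher gene is close to the share of all genes. Fbln7, a fibulin at a few CPM in the wild types, was at 143 CPM in IMP1 KO against 2.9 CPM in IMP1 WT, 49.5-fold higher (95% counting interval 36.6 to 68.6), and at 120.5 CPM in IMP2 KO against 3.76 CPM in IMP2 WT, 32-fold higher (95% counting interval 25 to 41.7). Mfap5 was at 371 CPM in IMP1 KO against 45.3 CPM in IMP1 WT, 8.19-fold higher (95% counting interval 7.55 to 8.9), and Fbln5 at 6603 CPM in IMP1 KO against 953 CPM in IMP1 WT, 6.93-fold higher (95% counting interval 6.81 to 7.06). In IMP2 KO both lay within 2-fold of their wild type, with log2 ratios of 0.20 and -0.35. Fbln2 was at 772 CPM in IMP2 KO against 5972 CPM in IMP2 WT, 7.74-fold lower (95% counting interval 7.6 to 7.88), and only just past 2-fold in IMP1 KO, with 2742 CPM in IMP1 KO against 5583 CPM in IMP1 WT. Mfap4 was also higher (log2 ratio 1.66) and Fbln1 lower (log2 ratio -1.55) in IMP1 KO, and Eln lower in IMP2 KO (log2 ratio -1.19). For Eln, IMP2 WT over IMP1 WT gave -0.79.

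Of the 9 basement membrane genes, 6 changed 2-fold in neither knockout, Hspg2, Lamb1, Lamb2 and Lamc1 among them. Lama4, Lama5 and Nid2 changed in at least 1 knockout, as did 20.9% of all genes. Lama4 was at 6.21 CPM in IMP1 KO against 57 CPM in IMP1 WT, 9.18-fold lower (95% counting interval 7.21 to 11.8), and at 270 CPM in IMP2 KO against 75.5 CPM in IMP2 WT, 3.58-fold higher (95% counting interval 3.36 to 3.81). Lama5, an alpha chain typical of epithelial and vessel basement membranes, was at 37.4 CPM in IMP2 KO against 255 CPM in IMP2 WT, 6.83-fold lower (95% counting interval 6.28 to 7.45), and had a log2 ratio of 0.065 in the IMP1 pair. Nid2 was at 1110 CPM in IMP2 KO against 138 CPM in IMP2 WT, 8.06-fold higher (95% counting interval 7.72 to 8.42), and 2.8-fold higher (95% counting interval 2.65 to 2.95) in IMP1 KO. The alpha chain Lama2 and the beta and gamma chains measured here stayed within 2-fold, with log2 ratios of -0.56 and -0.77 for Lama2.

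Most of the small proteoglycans and most of the lysyl oxidases were on opposite sides in IMP2 KO, where 7.51% of all genes were at least 2-fold higher and 7.83% lower. Of the 4 small proteoglycans, 3 were higher there: Fmod at 996 CPM in IMP2 KO against 188 CPM in IMP2 WT, 5.29-fold higher (95% counting interval 5.09 to 5.5), Dcn at 221 CPM in IMP2 KO against 69.9 CPM in IMP2 WT, and Lum at 229 CPM in IMP2 KO against 80.6 CPM in IMP2 WT. Bgn was within 2-fold in both knockouts (log2 ratios 0.36 and 0.026), and Lum was lower in IMP1 KO, at 6.3 CPM in IMP1 KO against 42.2 CPM in IMP1 WT, 6.69-fold lower (95% counting interval 5.25 to 8.65). Of the 4 lysyl oxidases, 3 were lower in IMP2 KO: Lox at 2000 CPM in IMP2 KO against 8255 CPM in IMP2 WT, 4.13-fold lower (95% counting interval 4.08 to 4.18), Loxl1 2.12-fold lower (95% counting interval 2.06 to 2.19) and Loxl3 2.46-fold lower (95% counting interval 2.35 to 2.58). None of the 4 changed 2-fold in IMP1 KO, where their log2 ratios ran from -0.70 to 0.42. The marker sums above belong to the same IMP2 KO library, with chondrocyte and macrophage markers higher and smooth muscle markers lower.

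Genes of either pull-down preference were found on both sides in the knockouts. Of the 22 measured genes that were higher in IMP1 IP than in IMP2 IP, 3 were higher and 3 lower in IMP1 KO, and 2 higher and 4 lower in IMP2 KO. Of the 10 that were lower in IMP1 IP, 2 were higher and 2 lower in IMP1 KO, and 3 higher and 2 lower in IMP2 KO. The median log2 ratios were -0.054 and -0.13 for the first set and 0.046 and 0.28 for the second. Of the 3343 measured genes with the first preference, 185 were higher and 162 lower in IMP1 KO and 225 and 219 in IMP2 KO, with medians of 0.079 and 0.025. Of the 4660 with the second, 168 were higher and 255 lower in IMP1 KO and 202 and 345 in IMP2 KO, with medians of -0.031 and -0.072.

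Promoters are shown for genes at least 2-fold changed in the same direction in both knockouts, as the 250 bases before the start that RefSeq's promoter entry (GRCm38.p6) uses; 26 of the 40 genes had such an entry. The Spp1 window ends at the base before the gene's span. That of Fbln2 lies wholly inside the span, which begins at an earlier base, and that of Fbln7 has 67 bases inside it. Each window of 250 bases was searched on both strands. TATAAA, the letters of the TATA box, stood in 12.4% of 32851 such windows and in 5 of the 26. GGGCGG, the letters of the GC box bound by Sp1, stood in 32.7% and in 16 of the 26. The AP-1 letters TGANTCA stood in 6.75% and in 2 of the 26. Capitals mark a match. Spp1 and Fbln2 were lower and Fbln7 higher in both knockouts.
Spp1, chr5:104434861-104435110, plus strand: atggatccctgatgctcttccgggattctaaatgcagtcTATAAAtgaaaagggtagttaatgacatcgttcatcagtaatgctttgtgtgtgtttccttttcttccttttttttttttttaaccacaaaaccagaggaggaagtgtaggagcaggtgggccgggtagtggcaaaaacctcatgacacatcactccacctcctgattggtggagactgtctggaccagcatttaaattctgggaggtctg
Fbln2, chr6:91212514-91212763, plus strand: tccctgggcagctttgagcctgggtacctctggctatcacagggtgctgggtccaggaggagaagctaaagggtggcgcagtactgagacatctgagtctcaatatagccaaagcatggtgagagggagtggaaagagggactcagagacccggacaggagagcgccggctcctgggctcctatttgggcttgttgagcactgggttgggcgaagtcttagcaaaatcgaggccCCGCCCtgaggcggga
Fbln7, chr2:128863682-128863931, plus strand: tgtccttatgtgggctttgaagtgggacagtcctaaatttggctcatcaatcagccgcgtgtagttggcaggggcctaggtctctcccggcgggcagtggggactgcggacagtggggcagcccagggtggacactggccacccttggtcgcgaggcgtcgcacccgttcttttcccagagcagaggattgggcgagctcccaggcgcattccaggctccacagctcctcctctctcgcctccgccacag
The Spp1 window held TATAAA, with its first base 211 bases before the start of its entry. The Fbln2 window held GGGCGG on the other strand, read here as CCGCCC, 16 bases before the start of its entry and inside the gene's span, and the Fbln7 window held none of the 3. A match is a description of the letters only, and no binding was measured. Guanine and cytosine made up 43.6%, 58.8% and 63.2% of the 3 windows.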

How the data were processed

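Per the submitters' processing notes, reads were aligned with STAR to mm10 and counted per gene with HTSeq; versions, annotation release and strand are not given in the sources used here. The deposited values are raw counts for 43629 Ensembl genes in each of 13 libraries, which the authors had not normalised; 5 tally lines that name no gene were left out of library sizes and tests, and the reads in no gene made up 6.54% to 30.4% of records. Symbols came from a table of gene names, which matched 42462 genes, and 5 listed symbols were renamed to current ones.

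The 9 IP libraries were fitted together in edgeR 4.0.16 (R 4.3.3) with TMM scaling, its default count filter, the quasi-likelihood test and Benjamini-Hochberg adjustment over 14076 genes; CPM printed for IP libraries are TMM-scaled over these 9, and the common biological coefficient of variation was 3.84%. The 4 total RNA libraries were TMM-scaled separately, and log2 ratios used a prior count of 2. CPM that set IP beside wild-type total RNA are over total counts. Intervals are exact at 95% and cover counting error only. On simulated counts for IMP1 IP against IgG IP with 13947 genes, 50 genes each were changed 1.25-fold, 1.5-fold, 2-fold and 4-fold. Of these, 64%, 86%, 100% and 100% were recovered, and 10 of 13747 unchanged genes were called. As many genes were raised as lowered, and all genes had the same dispersion. False calls that come from the choice of scaling were therefore not measured.

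Alternatives were DESeq2 1.42.0, its size factors, upper quartile and total count scaling, other filters, other backgrounds and leaving out libraries. The genes given with full values were the 3 highest and 3 lowest called genes of each IP comparison, the 3 highest and lowest of each knockout and the gene with the most reads of each group, and for the other lists the 2 highest and 2 lowest called genes; 1 gene that this rule names is not reported here. Of the 40 genes, 36 passed the filter. The members and lists were chosen with earlier results of these data known. Figures were drawn with matplotlib 3.10.9.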

Additional observations from a re-analysis of the deposited data

Results flagged for a closer look

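Lama4 and Lum stood out because the knockouts went in opposite directions. Lama4, a laminin alpha chain, had a log2 ratio of -3.17 in IMP1 KO and 1.84 in IMP2 KO, each over its own wild type, while both wild types lay within 2-fold of each other. Lum, a small leucine-rich proteoglycan that shapes collagen fibrils, had -2.72 in IMP1 KO and 1.5 in IMP2 KO. Each genotype had 1 library, so the difference between the knockouts was not tested.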

How the results depend on the processing

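The scaling, the filter, the tool, the background and each library in turn were varied. IMP1 IP against IgG gave 28 to 30 genes higher and 1 lower with any 1 library left out, IMP2 IP against IgG gave 13 to 16 and 17 to 18, and IMP1 IP against IMP2 IP gave 23 and 8 to 10. Genes below IgG in IMP1 IP numbered 2 under upper quartile scaling, total count scaling, a filter of at least 10 CPM in 3 libraries, and with only the 6 libraries compared. At 1.5-fold or more, 14 were higher in IMP1 IP and 8 lower in IMP2 IP, against 7.59% and 23.6% of all genes, and 11 were lower in IMP1 KO, against 12.8%. With the other wild type as reference, 33 of 39 log2 ratios in IMP1 KO and 35 in IMP2 KO left their counting intervals, 4 (Eln, Mfap4, Lama2 and Vcan) and 3 (Sparc, Fbn2 and Mfap2) crossed 2-fold, and 6 and 2 changed sign, 0 of them among genes past 2-fold. All 9 IP libraries lay at least 10-fold below both wild types for 9 genes.

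With wild-type total RNA as background, 10 genes were higher and 29 lower in IMP1 IP, and 9 and 31 in IMP2 IP, against 41.4%, 44.7%, 39.5% and 41.6% of all genes. The log2 fold change changed sign for 23 genes in IMP1 IP and 26 in IMP2 IP; the cause was not tested. The IMP1 IP values were Fbn2 -5.07, Mfap2 -4.67, Spp1 -4.16, Postn -3.71, Fbln5 -3.16, Fmod -3.14, Sparc -3.11, Loxl3 -3.06, Efemp2 -2.89, Lox -2.89, Dcn -2.70, Thbs1 -2.29, Lama2 -2.12, Fbln7 -1.89, Thbs2 -1.54, Fbln2 -1.37, Loxl1 -1.13, Tnc -1.08, Nid2 -1.01, Fbln1 -0.92, Ecm1 -0.76, Fbn1 -0.67, Lama4 -0.48. The IMP2 IP values were Mfap2 -4.56, Postn -4.22, Spp1 -4.06, Loxl3 -3.56, Lox -2.90, Sparc -2.56, Fmod -2.50, Fbln5 -2.44, Efemp2 -2.18, Bgn -2.12, Dcn -2.04, Fbln2 -2.02, Nid2 -1.69, Fbln7 -1.26, Fbln1 -1.05, Loxl1 -0.86, Ecm1 -0.70 and, above background, Lamb1 0.20, Lamb2 0.26, Thbs3 0.45, Hspg2 0.74, Vcan 0.86, Lama5 0.93, Lamc1 1.17, Loxl4 2.84, Tnxb 3.87.

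Other changes of sign were small, but under total count scaling Fbln1 and Loxl4 each passed the threshold with the new sign in 1 comparison. In IMP1 IP against IgG, Fbln7 went to -0.016 with DESeq2, -0.007 with its size factors, -0.17 under upper quartile scaling, -0.15 under total count scaling, -0.012 with 6 libraries, and between -0.138 and 0.215 with 1 library left out. Under upper quartile and total count scaling Tnxb went to -0.019 and -0.002, Efemp2 to -0.087 and -0.069, and Fmod to -0.11 and -0.089. With the 10 CPM filter Efemp2 was at -0.058 and Fmod at -0.078. In IMP2 IP against IgG, upper quartile scaling and the 10 CPM filter gave -0.074 and -0.067 for Nid2 and -0.057 and -0.051 for Loxl3. Total count scaling gave 0.054 for Thbs2 and 0.16 for Loxl4 (adjusted p = 0.000238). Loxl4 was called lower under upper quartile scaling (-0.194, adjusted p = 3.02e-05) and with the 10 CPM filter (-0.188, adjusted p = 9.01e-05). With DESeq2 size factors in edgeR it was also called lower (-0.08, adjusted p = 0.0425). Without a count filter Loxl4 was at 0.076, and between -0.02 and 0.034 with 1 library left out. In IMP1 IP against IMP2 IP, Lox went to 0.027 with DESeq2, 0.027 with its size factors, 0.004 with the 10 CPM filter and 0.009 with 6 libraries. Total count scaling gave -0.032 for Emilin1, -0.24 for Fbln1 (adjusted p = 0.0027) and -0.042 for Loxl4. Mfap2 lay between -0.269 and 0.033 with 1 library left out.

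The replicate numbers did not pair the libraries: same-numbered libraries deviated together with r of -0.059 to 0.073. A replicate block gave 30 higher and 1 lower, 15 and 18, and 23 and 10, with Mfap2 in IMP2 IP against IgG (0.49) the 1 call that changed. Depth limits the low genes: 3 counts, the limit that a count of 0 allows, were 0.138 to 0.263 CPM.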

Other observations

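Genes around the 40 also differed in total RNA, where 1 library per genotype allows no test. Of 20 measured other proteoglycans, 4 were at least 2-fold higher and 7 lower in IMP1 KO, and 9 were higher and 3 lower in IMP2 KO, with medians of -0.38 and 0.57. Of 18 matrix receptors, integrins among them, 0 were higher and 6 lower in IMP1 KO, and 3 were higher and 7 lower in IMP2 KO, with medians of -0.58 and -0.58. Of 38 enzymes that build glycosaminoglycan chains, 1 was higher and 6 lower in IMP1 KO, and 9 were higher and 4 lower in IMP2 KO. Of 36 other matrix glycoproteins, 7 were higher and 9 lower in IMP1 KO, and 11 and 9 in IMP2 KO. Over all genes, 5.52% were higher and 7.23% lower in IMP1 KO, and 7.51% and 7.83% in IMP2 KO. Some of these counts, such as 1 and 4 of the 38 enzymes, were not far from those shares.

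Endothelial markers summed to between 30.5 and 115.5 CPM in total RNA, epithelial markers to between 2.63 and 40.9 CPM and neural markers to between 61.3 and 293.8 CPM. In the pull-downs, fibroblast markers summed to between 10154 and 15412 CPM.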
